A study of Homo sapiens with 6 samples.

Results

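The genes described here are 30 that the tumour suppressor p53 is known to induce, read from mRNA counts in RCC10, an established cell line from a human renal carcinoma of the clear cell type with deficient VHL. They were chosen by symbol as widely used p53 targets, with earlier results of these data known. Their counts beside those of all genes are therefore descriptive and no independent support. All 30 were found among the 19009 gene symbols of the deposited table, where C12orf5 is the older name of TIGAR. The table holds 3 groups of 2 libraries. HIF double-knockout cells had HIF-1alpha and HIF-2alpha targeted with guide RNAs from a lentivirus, followed by puromycin, VHL-restored cells received VHL from a lentivirus, and parental cells are the untreated control. The medium was DMEM plus 10% fetal bovine serum throughout. No group carried a non-targeting guide or an empty vector, and the labels do not say whether the engineered lines were clones or pools, or whether replicates were separate cultures. What transduction and selection did cannot be told apart from what HIF loss or VHL did, and the p-values measure only how far these libraries spread, a spread that may be technical.

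p53 is a transcription factor that is held at a low level by the ubiquitin ligase MDM2 and accumulates after DNA damage and other stresses. It then raises genes that stop the cell cycle, promote apoptosis, repair DNA and adjust metabolism, and it raises its own inhibitors, which closes a feedback loop. Many of these genes are also raised by other regulators, such as the integrated stress response factor ATF4 for SESN2 and GDF15.

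The DNA site of p53 is a pair of decamers separated by few or no bases. RefSeq promoter windows of build GRCh38.p14, running from 250 bases before to 50 bases after the start site, were matched for 24 of the 30 genes. The remaining GADD45A, TNFRSF10A, TNFRSF10B, PHLDA3, TP53INP1 and RRM2B were not matched. A search for the p53 consensus site, with both central C and G bases intact in each decamer, a spacer of at most 13 bases and at most 3 mismatches, found a match in 5 of the 24 windows (20.8%), against 1539 of 12471 windows of genes in the table (12.3%). The site reads alike on both strands. The 2 windows with the closest matches are shown in full. AEN lies on the plus strand at chr15:88621090-88621389 and FDXR on the minus strand at chr17:74872945-74873244, with the decamers in capitals.
AEN: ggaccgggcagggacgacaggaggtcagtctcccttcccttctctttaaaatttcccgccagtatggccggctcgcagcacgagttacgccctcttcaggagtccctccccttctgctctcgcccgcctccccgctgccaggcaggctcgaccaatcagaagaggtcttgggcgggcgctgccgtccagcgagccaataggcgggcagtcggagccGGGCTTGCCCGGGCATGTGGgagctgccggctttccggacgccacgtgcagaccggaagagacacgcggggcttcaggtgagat
FDXR: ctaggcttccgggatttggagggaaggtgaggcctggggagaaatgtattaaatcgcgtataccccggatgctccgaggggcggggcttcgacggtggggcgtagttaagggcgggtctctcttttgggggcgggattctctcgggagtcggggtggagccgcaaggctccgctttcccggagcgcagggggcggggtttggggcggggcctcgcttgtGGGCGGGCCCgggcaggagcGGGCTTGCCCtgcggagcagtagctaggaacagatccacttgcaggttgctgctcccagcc
Each of these matches has 2 mismatches. The matched stretches of GDF15, ZMAT3 and PLK2, with 3 mismatches each, are printed for comparison with the decamers in capitals. They lie within the windows chr19:18385908-18386207 on the plus strand, chr3:179071760-179072059 on the minus strand and chr5:58460037-58460336 on the minus strand.
GDF15: AGCCATGCCCGGGCAAGAAC
ZMAT3: GGGCCTGCTCcgccaaGCACATGCGC
PLK2: AGACTTGCTTcccGGCCACGCGC
A match describes the letters of the window, and the counts hold no measure of p53 binding. Bases outside the windows were not searched, so a window without a match does not mean a gene without a site.

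Total counts ran from 22248126 to 29929116 per library, and each member had between 134 and 22201 counts in each library, so a filter on low counts removed none of the 30. EPAS1, the gene of HIF-2alpha, was at 44.4 and 48.0 CPM (counts scaled to library size by TMM) in double-knockout against 352 and 349 CPM in parental cells, and HIF1A at 29.6 and 31.6 against 69.5 and 72.9 CPM, so both transcripts were lower but present. In VHL-restored cells HIF1A was above its parental level, at 304 and 286 CPM, and EPAS1 was at 363 and 369 CPM. VHL was at 652 and 723 CPM in VHL-restored against 38.8 and 39.5 CPM in parental cells. Of 12 renal and clear cell carcinoma markers, 11 reached 1 CPM in some library, and CA9 had at most 1 count in any library. Their sum was 7066 to 7071 CPM in double-knockout, 6135 to 6495 CPM in VHL-restored and 8937 to 9003 CPM in parental cells. Of the 12, 5 rose and 6 fell in double-knockout cells, and 4 rose and 6 fell in VHL-restored cells. The renal factor PAX8 rose in both lines. In double-knockout cells PAX2 was at 15.9 and 14.8 CPM, against 1.48 and 1.85 CPM in parental cells. KRT18 was at 869 and 814 against 352 and 345 CPM. CDH6, CDH16, EPCAM and NDUFA4L2 fell at least 2-fold in double-knockout cells. CDH16, for one, was at 1.64 and 1.83 CPM in double-knockout, 21.1 and 23.2 CPM in VHL-restored and 31.9 and 28.7 CPM in parental cells. Defining markers of leukocytes (PTPRC, CD3E) and endothelium (PECAM1, KDR) had no count in any library, nor had the fibroblast marker COL3A1. Other fibroblast markers were detected, COL1A1 at up to 10.1 CPM, PDGFRB at up to 14.3 CPM and THY1 at up to 3.14 CPM. PDGFRA, DCN and FAP reached at most 0.214 CPM. The summed leukocyte markers were nevertheless at 23.3 to 25.6 CPM in double-knockout, 24.4 to 27.1 CPM in VHL-restored and 61.0 to 65.6 CPM in parental cells, most of it CD68. Summed endothelial markers were at 0.239 to 0.311, 1.75 to 1.86 and 0.539 to 0.617 CPM and fibroblast markers at 6.19 to 6.33, 26.2 to 27.4 and 18.16 to 18.21 CPM in the same order of groups, and the part of these markers in the results was not tested.

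Compared with parental cells, 24 of the 30 p53-regulated genes rose in double-knockout cells, 3 fell and 3 did not pass an adjusted p of 0.05. Of all 18273 genes tested, 54.1% passed, 26.6% higher and 27.5% lower. Among the 12664 genes with at least 10 counts in every library, a nearer setting for these well-expressed members, 70.2% passed, 35.7% higher and 34.4% lower. The median log2 fold change of the members was 0.66, beside 0.00 over all genes tested and 0.01 over the 12664. In VHL-restored cells 20 members rose, 7 fell and 3 did not pass, where 54.2% of all genes passed, 26.5% higher and 27.7% lower. Of the 12664 genes 70.2% passed there, 34.6% higher and 35.7% lower. The median of the members was 0.42 there, beside 0.00 over all genes and -0.01 over the 12664. Of the members, 7 rose at least 2-fold in double-knockout cells, as did 4 in VHL-restored cells, where 6.06% and 6.13% of all genes rose that far, and no member fell 2-fold, where 10.3% and 8.4% of all genes did. In RNA of whole cultures, fewer cells that express a gene and less of its RNA per cell cannot be told apart. Both comparisons use the same parental libraries, so they are given side by side and their likeness is not counted as a result.

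**Figure D1:**
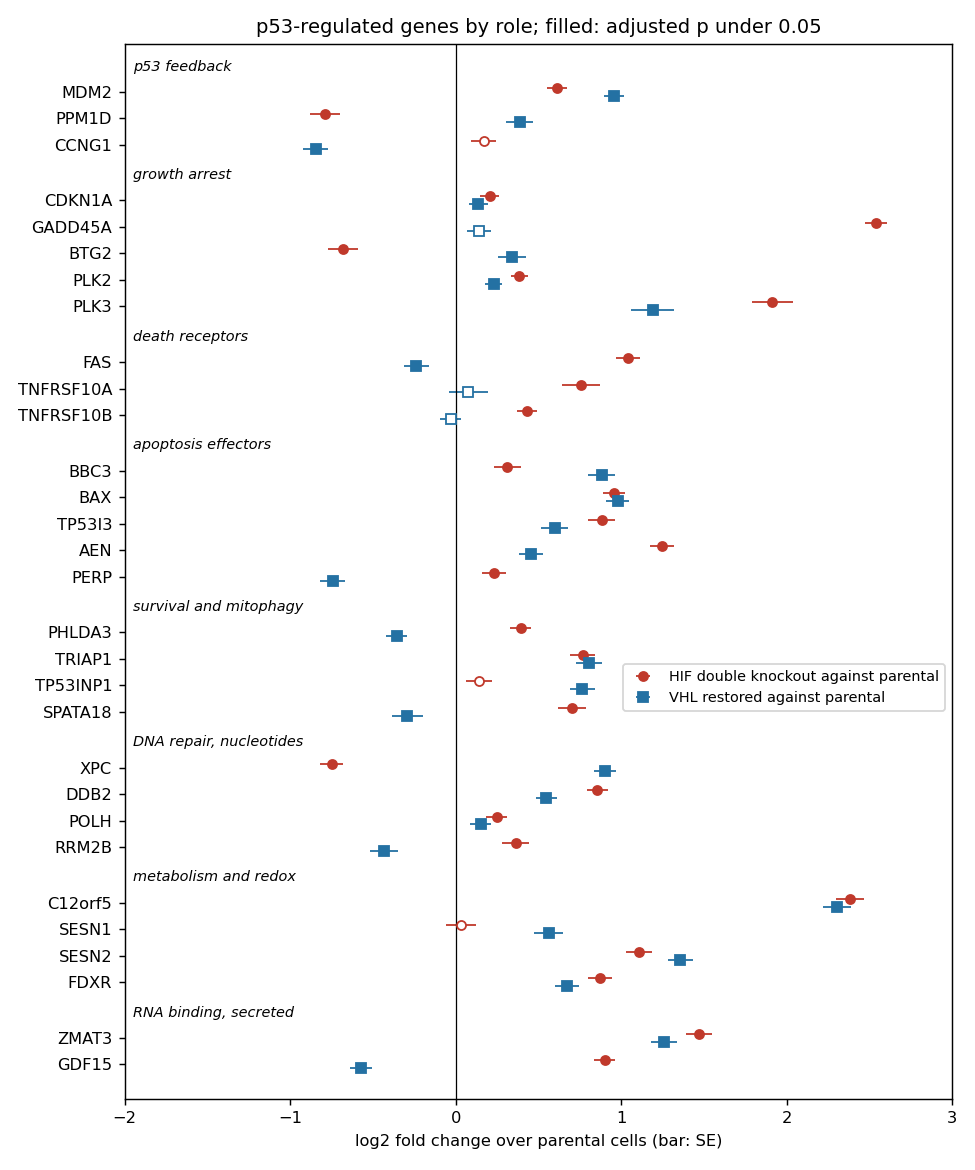
Log2 fold change (x axis, bars are SE) of the 30 p53-regulated genes over parental cells in HIF double-knockout (circles) and VHL-restored cells (squares), grouped by role down the page, with filled symbols for an adjusted p under 0.05. GADD45A at 2.54 and C12orf5 at 2.38 lie farthest right in double-knockout cells, and XPC, PPM1D and BTG2 lie left of 0 in double-knockout and right of 0 in VHL-restored cells.

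The feedback genes did not move as one. MDM2, the ligase that degrades p53, was at 243 and 269.8 CPM in double-knockout, 332 and 319 CPM in VHL-restored and 163 and 173 CPM in parental cells. Its 3 groups did not overlap, and it rose by 0.61 ± 0.06 (log2 fold change ± SE, adjusted p = 4.1e-10) in double-knockout cells and by 0.96 ± 0.06 (adjusted p = 1.6e-14) in VHL-restored cells. PPM1D encodes the phosphatase WIP1, which switches off p53 and its upstream kinases. It was at 14.3 and 13.2 CPM in double-knockout, 31.7 and 30.5 CPM in VHL-restored and 23.4 and 24.3 CPM in parental cells, so that the parental libraries lay between the engineered lines. It fell by 0.79 ± 0.09 (adjusted p = 4.7e-09) in double-knockout cells and rose by 0.39 ± 0.08 (adjusted p = 0.00015) in VHL-restored cells. CCNG1, encoding cyclin G1, which recruits a phosphatase to MDM2, was at 106 and 127 CPM in double-knockout, 59.4 and 55.8 CPM in VHL-restored and 97.6 and 109.9 CPM in parental cells. Double-knockout and parental libraries overlapped, with a log2 fold change of 0.17 ± 0.08 (adjusted p = 0.0604), whereas VHL-restored cells fell by 0.85 ± 0.08 (adjusted p = 7.5e-11). The CCNG1 value in double-knockout cells passed under 6 of 12 alternatives, with adjusted p down to 0.0112.

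Among the growth arrest genes the largest change was that of GADD45A, a stress sensor that restrains the G2/M kinase complex. It was at 222 and 229.8 CPM in double-knockout, 42.2 and 43.5 CPM in VHL-restored and 37.9 and 40.0 CPM in parental cells. The double-knockout libraries stood far above the other 4, a rise of 5.80-fold (log2 fold change 2.54 ± 0.07, adjusted p = 1.9e-24), while the VHL-restored value of 0.14 ± 0.07 did not pass (adjusted p = 0.099). CDKN1A encodes p21, the inhibitor of cyclin-dependent kinases through which p53 arrests the cell cycle. It was at 314 and 305 CPM in double-knockout, 296 and 295 CPM in VHL-restored and 272 and 265 CPM in parental cells. The groups did not overlap but lay close, and CDKN1A rose by 0.20 ± 0.06 (adjusted p = 0.00224) in double-knockout and by 0.14 ± 0.06 (adjusted p = 0.0397) in VHL-restored cells. The first call was lost without parental replicate 2 (adjusted p = 0.0560). The second was lost without either parental or either VHL-restored replicate (adjusted p from 0.0533 to 0.181).

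PLK3, a stress-responsive polo-like kinase, was at 23.4 and 18.9 CPM in double-knockout, 13.4 and 12.2 CPM in VHL-restored and 5.39 and 5.91 CPM in parental cells. It rose 3.76-fold in double-knockout cells (adjusted p = 4.7e-15) and 2.28-fold in VHL-restored cells (adjusted p = 1.1e-09), with no overlap between groups. Its relative PLK2, which regulates centriole duplication, rose by 0.38 ± 0.05 (adjusted p = 1.6e-07) in double-knockout and 0.23 ± 0.05 (adjusted p = 0.00037) in VHL-restored cells on the log2 scale. BTG2, an antiproliferative gene that promotes mRNA deadenylation, went against the rest of this role in double-knockout cells. BTG2 was at 21.7 and 17.5 CPM in double-knockout, 39.6 and 40.1 CPM in VHL-restored and 31.0 and 32.1 CPM in parental cells, which did not overlap. It fell by 0.68 ± 0.09 (adjusted p = 9.1e-08) in double-knockout cells and rose by 0.34 ± 0.08 (adjusted p = 0.00087) in VHL-restored cells, a call lost without parental replicate 1 (adjusted p = 0.0747).

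**Figure D2:**
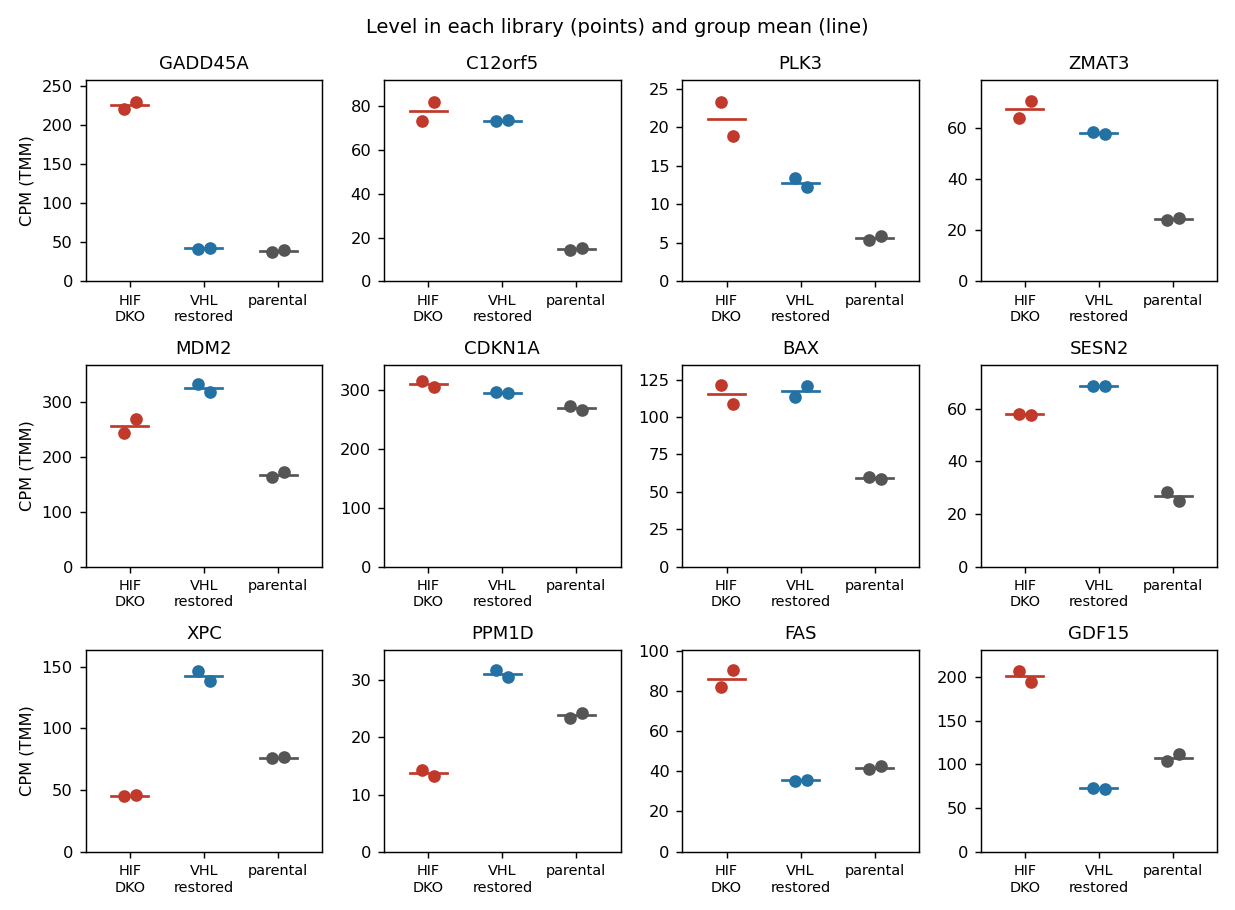
CPM (y axis, from 0) of 12 members in each library, as points, with the group mean as a line, for HIF double-knockout, VHL-restored and parental cells. GADD45A is high in the double-knockout libraries alone, C12orf5 is high in both engineered lines, and XPC and PPM1D are lowest in double-knockout and highest in VHL-restored libraries.

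All 3 death receptors rose in double-knockout cells and none rose in VHL-restored cells, where 35.7% and 34.6% of the 12664 genes rose. With 3 members this is no result about the role. FAS, the receptor of FAS ligand, was at 82.0 and 90.1 CPM in double-knockout, 35.3 and 35.5 CPM in VHL-restored and 41.2 and 42.4 CPM in parental cells. The double-knockout libraries stood above the other 4, with a rise of 2.06-fold (log2 fold change 1.04 ± 0.07, adjusted p = 7.5e-14). In VHL-restored cells FAS fell by 0.24 ± 0.08 (adjusted p = 0.00816), a call lost without parental replicate 1 or 2 (adjusted p = 0.0662 and 0.108). TNFRSF10A, encoding the TRAIL receptor DR4, was at 17.5 and 14.4 CPM in double-knockout, 10.8 and 9.11 CPM in VHL-restored and 9.64 and 9.26 CPM in parental cells. It rose by 0.76 ± 0.11 (adjusted p = 7.1e-07) in double-knockout cells, and VHL-restored and parental libraries overlapped (log2 fold change 0.08 ± 0.12, adjusted p = 0.619). TNFRSF10B, the TRAIL receptor DR5 and also a target of the stress factor CHOP, rose by 0.43 ± 0.06 (adjusted p = 3.6e-07) in double-knockout cells. It was -0.03 ± 0.06 in VHL-restored cells, where its libraries overlapped the parental ones (adjusted p = 0.703).

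All 5 effectors of apoptosis rose in double-knockout cells, and 4 of them rose and 1 fell in VHL-restored cells. BAX, which permeabilises the outer mitochondrial membrane, was at 122 and 109 CPM in double-knockout, 113 and 121 CPM in VHL-restored and 60.1 and 58.7 CPM in parental cells. Both engineered lines lay near 2-fold above parental cells, at 1.94-fold (adjusted p = 1.9e-13) and 1.97-fold (adjusted p = 1.3e-13). BBC3 encodes PUMA, which frees BAX from its inhibitors. It was at 25.5 and 24.0 CPM in double-knockout, 36.8 and 36.8 CPM in VHL-restored and 19.6 and 20.3 CPM in parental cells, and rose by 0.31 ± 0.08 (adjusted p = 0.00194) and by 0.88 ± 0.08 (adjusted p = 6.1e-11). AEN, the apoptosis-enhancing nuclease whose promoter is printed above, was at 93.2 and 86.3 CPM in double-knockout, 51.4 and 52.6 CPM in VHL-restored and 37.2 and 38.7 CPM in parental cells. It rose 2.37-fold in double-knockout cells (adjusted p = 8.6e-16) and 1.37-fold in VHL-restored cells (adjusted p = 3.1e-06), without overlap. TP53I3, a quinone oxidoreductase linked to reactive oxygen, rose by 0.88 ± 0.08 (adjusted p = 5.9e-11) in double-knockout and 0.60 ± 0.08 (adjusted p = 2.2e-07) in VHL-restored cells.

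PERP, a desmosomal membrane protein with a role in apoptosis, was the member of that role that fell. PERP was at 121 ± 10.8 CPM in double-knockout, 61.7 ± 2.38 CPM in VHL-restored and 104 ± 8.75 CPM in parental cells (SD, n = 2 each), with no overlap, and fell by 0.74 ± 0.07 (adjusted p = 2.6e-10) in VHL-restored cells. Its rise of 0.23 ± 0.07 in double-knockout cells (adjusted p = 0.0061) was lost without either parental replicate 1 or replicate 2 of the double knockout (adjusted p = 0.271 and 0.208).

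The 4 genes that bear on survival or on the removal of mitochondria moved unevenly. In double-knockout cells 3 rose and 1 did not pass, and in VHL-restored cells 2 rose and 2 fell. Of the 12664 genes, 35.7% rose and 34.4% fell in double-knockout cells, and 34.6% and 35.7% in VHL-restored cells. TRIAP1, which restrains the apoptosome and carries lipids in mitochondria, was at 52.8 and 55.8 CPM in double-knockout, 52.9 and 58.6 CPM in VHL-restored and 31.7 and 32.1 CPM in parental cells. It rose by 0.77 ± 0.08 (adjusted p = 3.7e-10) in double-knockout and 0.81 ± 0.08 (adjusted p = 1.4e-10) in VHL-restored cells, which overlapped each other and lay above the parental libraries. PHLDA3, an inhibitor of AKT, was at 119.5 and 115 CPM in double-knockout, 71.4 and 68.5 CPM in VHL-restored and 89.9 and 89.2 CPM in parental cells. The parental libraries lay between the engineered lines, with a rise of 0.39 ± 0.06 in double-knockout cells (adjusted p = 3.3e-06) and a lower level in VHL-restored cells, which fell by 0.36 ± 0.06 (adjusted p = 2.0e-05). PHLDA3 shares 22.2% of its exon bases on the same strand with a gene outside the count table, whose part was not tested. SPATA18, a mediator of mitochondrial quality control, rose by 0.70 ± 0.09 (adjusted p = 2.6e-08) in double-knockout cells and fell by 0.29 ± 0.09 (adjusted p = 0.00795) in VHL-restored cells, a fall lost without parental replicate 1 (adjusted p = 0.149). TP53INP1, a cofactor of p53 that also acts in autophagy, was at 41.5 and 47.0 CPM in double-knockout, 69.3 and 67.0 CPM in VHL-restored and 41.2 and 38.9 CPM in parental cells. It rose by 0.76 ± 0.08 (adjusted p = 2.7e-10) in VHL-restored cells, and its value of 0.14 ± 0.08 in double-knockout cells did not pass (adjusted p = 0.131), except without double-knockout replicate 1 (adjusted p = 0.0369).

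Of the 4 DNA repair genes, 3 rose and 1 fell in each line, and XPC and RRM2B moved in opposite directions. Beside them, 35.7% of the 12664 genes rose and 34.4% fell in double-knockout cells, and 34.6% and 35.7% in VHL-restored cells. XPC encodes the damage sensor that starts global nucleotide excision repair. It was at 44.8 and 45.9 CPM in double-knockout, 146 and 139 CPM in VHL-restored and 76.1 and 76.5 CPM in parental cells, 3 levels far apart relative to the spread between replicates. XPC fell 1.68-fold in double-knockout cells (log2 fold change -0.75 ± 0.07, adjusted p = 4.0e-11) and rose 1.87-fold in VHL-restored cells (log2 fold change 0.90 ± 0.06, adjusted p = 1.8e-13). In GENCODE v29, 8.30% of the XPC exon bases are shared with LSM3 on the other strand, and LSM3 was at 43.6 and 46.0 CPM in double-knockout, 62.5 and 73.1 CPM in VHL-restored and 37.5 and 41.9 CPM in parental cells. Whether counting used the strand is not stated, and the part of LSM3 reads in the XPC values was not tested. XPC shares a further 16.6% and 10.8% of its exon bases on the other strand with 2 genes outside the count table. Smaller shares were held by TNFRSF10A (8.25%), MDM2 (6.17%, and 3.45% on the same strand), SESN1 (6.16%) and TP53I3 (3.93%). PLK3 (3.13%), TNFRSF10B (1.62%) and CDKN1A (1.28%) overlapped other genes too, and the part of these overlaps was not tested.

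DDB2, which finds ultraviolet damage ahead of XPC, rose in both lines. DDB2 was at 159 and 152 CPM in double-knockout, 123 and 129 CPM in VHL-restored and 88.3 and 83.8 CPM in parental cells, with log2 fold changes of 0.85 ± 0.06 (adjusted p = 3.5e-13) and 0.55 ± 0.06 (adjusted p = 8.6e-09). POLH, the translesion polymerase eta, rose by 0.25 ± 0.06 (adjusted p = 0.00115) in double-knockout and 0.15 ± 0.06 (adjusted p = 0.0421) in VHL-restored cells, and the second call was lost without any one parental or VHL-restored replicate (adjusted p from 0.0590 to 0.196). RRM2B, the p53-inducible subunit of ribonucleotide reductase, was at 61.6 and 73.5 CPM in double-knockout, 41.0 and 36.7 CPM in VHL-restored and 49.2 and 56.1 CPM in parental cells. It rose by 0.36 ± 0.08 (adjusted p = 0.00037) in double-knockout cells and fell by 0.43 ± 0.09 (adjusted p = 6.2e-05) in VHL-restored cells. The rise was lost without either parental replicate 1 or replicate 2 of the double knockout (adjusted p = 0.123 and 0.0736), and the fall without parental replicate 2 (adjusted p = 0.0630).

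Metabolic and redox genes rose in both lines, apart from SESN1 in double-knockout cells. C12orf5, or TIGAR, lowers fructose-2,6-bisphosphate and so diverts glucose from glycolysis to the pentose phosphate pathway. It was at 73.3 and 81.8 CPM in double-knockout, 73.0 and 73.8 CPM in VHL-restored and 14.6 and 15.2 CPM in parental cells, so all 4 engineered libraries stood far above the parental ones and overlapped each other. Its rise was 5.21-fold in double-knockout cells (log2 fold change 2.38 ± 0.08, adjusted p = 1.7e-21) and 4.94-fold in VHL-restored cells (log2 fold change 2.30 ± 0.08, adjusted p = 4.7e-21). In GENCODE v29 a gene outside the count table shares 45.3% of the C12orf5 exon bases on the same strand, and its part in these values was not tested. The sestrins SESN1 and SESN2 are leucine-sensitive inhibitors of mTORC1 with antioxidant roles. SESN2 was at 58.0 and 57.9 CPM in double-knockout, 68.7 and 68.9 CPM in VHL-restored and 28.4 and 25.1 CPM in parental cells, a rise of 2.16-fold (adjusted p = 8.1e-14) and 2.56-fold (adjusted p = 5.8e-16). SESN1 rose by 0.56 ± 0.09 (adjusted p = 1.7e-06) in VHL-restored cells. In double-knockout cells SESN1 was 0.03 ± 0.09, with libraries inside the parental range (adjusted p = 0.796). FDXR, the mitochondrial ferredoxin reductase whose promoter is printed above, was at 79.2 and 72.4 CPM in double-knockout, 64.3 and 67.8 CPM in VHL-restored and 42.0 and 41.0 CPM in parental cells. It rose by 0.87 ± 0.07 (adjusted p = 5.7e-12) in double-knockout and 0.67 ± 0.07 (adjusted p = 2.2e-09) in VHL-restored cells, with no overlap.

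The remaining members are an RNA-binding protein and a secreted factor. ZMAT3, a zinc finger protein that binds RNA and acts downstream of p53 in tumour suppression, was at 63.9 and 70.7 CPM in double-knockout, 58.6 and 57.5 CPM in VHL-restored and 24.0 and 24.7 CPM in parental cells. It rose 2.77-fold (adjusted p = 9.7e-17) and 2.39-fold (adjusted p = 6.5e-15), with the engineered libraries well above the parental ones. GDF15, a stress-induced cytokine, was at 207 and 195 CPM in double-knockout, 72.8 and 72.4 CPM in VHL-restored and 104 and 112 CPM in parental cells. The parental libraries lay between the lines, with a rise of 1.86-fold in double-knockout cells (log2 fold change 0.90 ± 0.06, adjusted p = 1.0e-13) and a fall of 1.49-fold in VHL-restored cells (log2 fold change -0.57 ± 0.07, adjusted p = 6.2e-09).

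**Figure D3:**
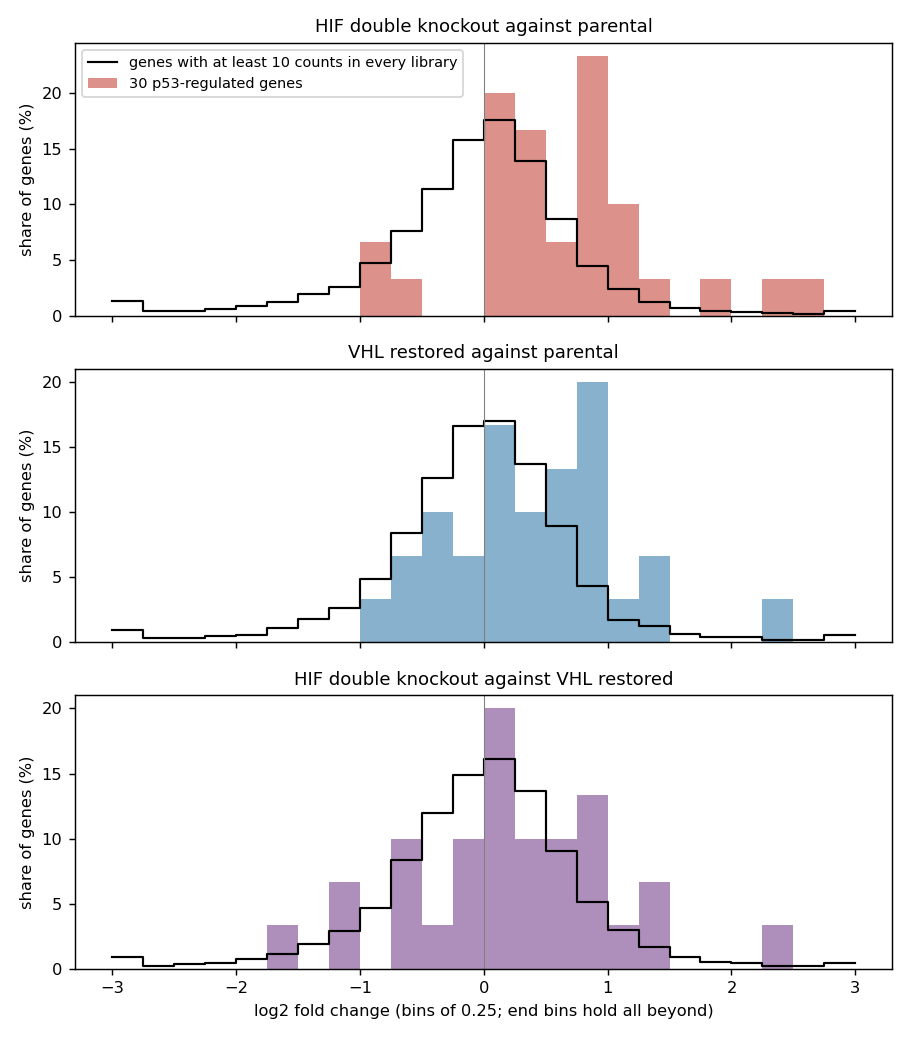
Share of genes (y axis, percent) by log2 fold change (x axis, bins of 0.25, end bins hold all values beyond) for the 30 p53-regulated genes (bars) and for the 12664 genes with at least 10 counts in every library (line), in the 3 comparisons. The members sit mostly right of 0 against parental cells, with medians of 0.66 (double knockout) and 0.42 (VHL restored), and are spread on both sides of 0 between the engineered lines.

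Double-knockout and VHL-restored cells were then compared directly, a contrast of their own group means in the same fit. Of the 30 members 17 were higher in double-knockout cells, 8 were lower and 5 did not pass, with a median log2 fold change of 0.21. Of all genes tested 56% passed, 28% higher and 28% lower. Of the 12664 genes 37.3% were higher and 35.3% lower, 72.7% in all, with a median of 0.02. The members higher were 56.7% of the list, above both of these shares. The members lower were 26.7%, near the 28% of all genes and below the 35.3% of the 12664. At least 2-fold differences were held by 4 members higher and 3 lower, where 7.18% of all genes were higher and 9.45% lower by that much. GADD45A differed most, at 5.27-fold higher (log2 fold change 2.40 ± 0.07, adjusted p = 9.2e-24). GDF15 was 2.77-fold higher (adjusted p = 1.1e-18) and FAS 2.43-fold higher (adjusted p = 7.1e-16). CCNG1, SPATA18 and PERP were higher by 1.02 ± 0.08, 1.00 ± 0.09 and 0.97 ± 0.07 on the log2 scale. All 3 death receptors were higher in double-knockout cells, TNFRSF10A by 0.68 ± 0.11 and TNFRSF10B by 0.46 ± 0.06.

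In the other direction XPC was 3.14-fold lower in double-knockout than in VHL-restored cells (log2 fold change -1.65 ± 0.07, adjusted p = 1.3e-19). PPM1D was 2.26-fold lower (adjusted p = 3.7e-13) and BTG2 2.03-fold lower (adjusted p = 1.2e-11). TP53INP1, BBC3, SESN1, MDM2 and SESN2 were lower by smaller amounts, from 0.62 for TP53INP1 to 0.25 for SESN2 on the log2 scale (log2 fold changes -0.62 and -0.25). The members that did not pass were C12orf5 at 0.08 ± 0.07 (adjusted p = 0.365), BAX at -0.02 ± 0.07 (adjusted p = 0.824), TRIAP1 at -0.04 ± 0.07, CDKN1A at 0.07 ± 0.06 and POLH at 0.10 ± 0.06. Small positive differences of FDXR (0.20 ± 0.07), PLK2 (0.16 ± 0.05) and ZMAT3 (0.21 ± 0.07) passed but were each lost under at least 1 alternative, with adjusted p up to 0.166, 0.0705 and 0.139.

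**Figure D4:**
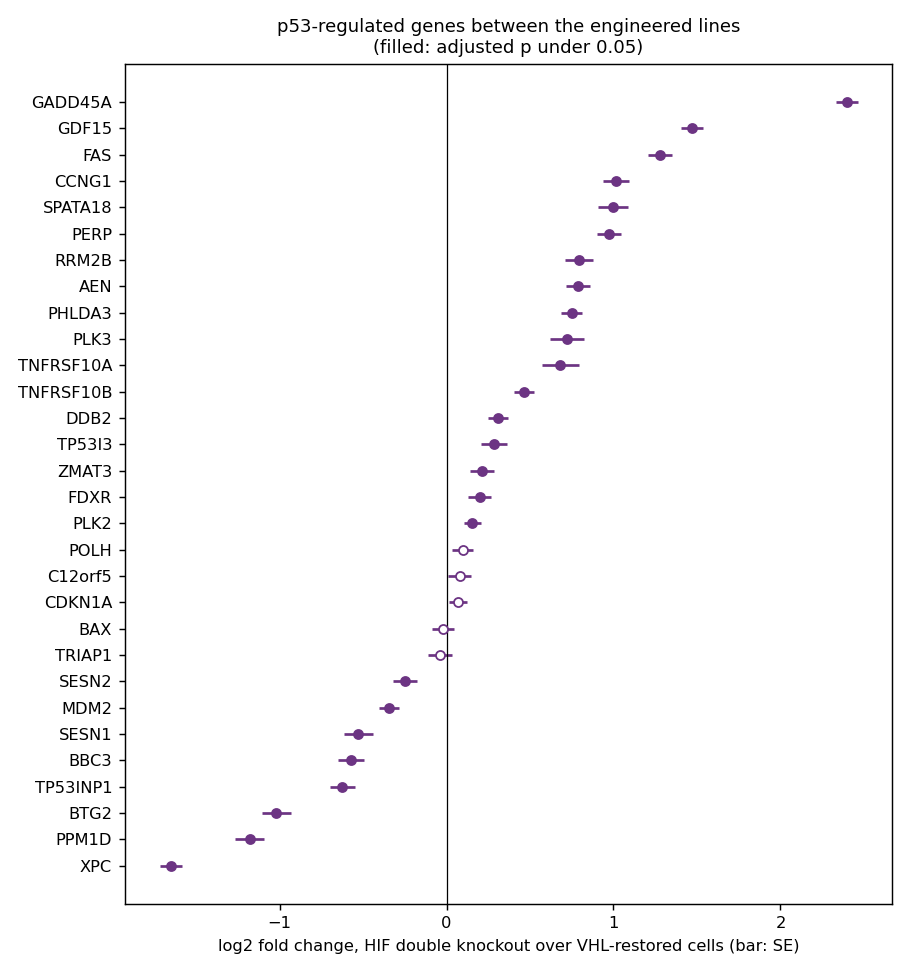
Log2 fold change of HIF double-knockout over VHL-restored cells (x axis, bars are SE) for the 30 members in order of size, with filled symbols for an adjusted p under 0.05. GADD45A stands alone at 2.40 on the right, XPC at -1.65 lies farthest left, and C12orf5, BAX, TRIAP1, CDKN1A and POLH are open symbols near 0.

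Relatives and regulators of p53 were read beside these genes. MDM4, the partner of MDM2 that blocks p53 activity, was at 25.6 and 26.1 CPM in double-knockout, 38.5 and 34.0 CPM in VHL-restored and 49.2 and 55.8 CPM in parental cells, and fell by 1.02 ± 0.08 (adjusted p = 3.1e-12) and by 0.53 ± 0.08 (adjusted p = 9.4e-07). HIPK2, a kinase that phosphorylates p53 for apoptosis, was at 272 and 256 CPM in double-knockout, 185 and 152 CPM in VHL-restored and 576 and 549.6 CPM in parental cells, a fall of 2.14-fold (adjusted p = 4.3e-15) and 3.34-fold (adjusted p = 6.5e-20).

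The p53 relative TP73 was at 0.171 and 0.350 CPM in double-knockout and 4.08 and 3.57 CPM in parental libraries, while VHL-restored libraries held no TP73 count. It fell 14.9-fold in double-knockout cells (adjusted p = 1.6e-12), and it was at least 71.3-fold lower in VHL-restored cells, against a floor of 3 counts over the group. The other relative, TP63, had at most 0.107 CPM in any library. TP53BP2, encoding the p53-binding protein ASPP2, was at 152 and 149 CPM in double-knockout, 79.1 and 73.0 CPM in VHL-restored and 156 and 152 CPM in parental cells and fell in VHL-restored cells, by 1.02 ± 0.06 (adjusted p = 6.9e-15). PPP1R13B, encoding its relative ASPP1, rose there by 1.25 ± 0.12 (adjusted p = 2.0e-10). Of the 23 relatives and upstream regulators examined, 9 rose and 9 fell in double-knockout cells, 4 rose and 9 fell in VHL-restored cells, and 9 were higher and 5 lower between the lines. These are 39.1% and 39.1%, 17.4% and 39.1%, and 39.1% and 21.7% of the list, beside 35.7% and 34.4%, 34.6% and 35.7%, and 37.3% and 35.3% of the 12664 genes with at least 10 counts in every library. The 9 that rose in double-knockout cells became 4 without parental replicate 1 or double-knockout replicate 2 and 5 without parental replicate 2.

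A second list held 57 further genes reported as induced by p53, of which 56 were in the table. In double-knockout cells 33 rose and 14 fell, with a median log2 fold change of 0.49, and in VHL-restored cells 23 rose and 15 fell, with a median of 0.16. Between the lines 23 were higher and 21 lower. The shares higher and lower were 58.9% and 25% of the list in double-knockout cells, beside 35.7% and 34.4% of the 12664 genes, and 41.1% and 26.8% in VHL-restored cells, beside 34.6% and 35.7%. Between the lines they were 41.1% and 37.5%, near the 37.3% and 35.3% of the 12664. Without parental replicate 1, 9 rather than 15 fell in VHL-restored cells. FUCA1, a lysosomal fucosidase, was at 143 and 149 CPM in double-knockout, 43.2 and 46.4 CPM in VHL-restored and 50.5 and 53.2 CPM in parental cells, and was 3.26-fold higher in double-knockout than in VHL-restored cells (adjusted p = 1.1e-19). SULF2, an extracellular sulfatase, rose 3.53-fold over parental cells with the double knockout (adjusted p = 1.4e-16). SESN3, the remaining sestrin, was low, at 0.274 and 0.233 CPM in double-knockout, 1.14 and 0.929 CPM in VHL-restored and 2.02 and 1.76 CPM in parental cells, and fell by 2.88 ± 0.42 in the double knockout (adjusted p = 1.2e-08). The growth factor gene TGFA fell by 2.28 ± 0.06 (adjusted p = 1.6e-24) in double-knockout cells, with -2.63 in VHL-restored cells (adjusted p = 6.8e-26). CASP10, an initiator caspase, fell by 1.85 ± 0.10 (adjusted p = 6.8e-17) in double-knockout cells. CASP10 was lower in VHL-restored cells too, at 16.1 and 17.5 CPM against 36.5 and 32.0 CPM in parental cells. TRIM22, an interferon-induced ligase, was at 1.88 and 2.06 CPM in double-knockout, 4.29 and 5.40 CPM in VHL-restored and 0.775 and 0.706 CPM in parental cells. KITLG, the ligand of KIT, rose 5.36-fold in VHL-restored cells (adjusted p = 6.7e-23), and CMBL, a hydrolase, had no count there, at least 178-fold below its parental level.

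Cell cycle genes that p53 is known to repress through p21 and the DREAM complex were examined next. Of 42, 20 rose and 10 fell in double-knockout cells (median log2 fold change 0.16) and 15 rose and 11 fell in VHL-restored cells (median 0.05), with 13 higher and 13 lower between the lines. In double-knockout cells this is 47.6% higher and 23.8% lower, beside 35.7% and 34.4% of the 12664 genes. The 35.7% higher in VHL-restored cells is near the 34.6% of the 12664, with 26.2% lower beside 35.7%, and between the lines 31.0% in each direction stand beside 37.3% and 35.3%. Without parental replicate 1 or 2, 6 rather than 11 fell in VHL-restored cells. CDC20, an activator of the anaphase-promoting complex, was at 274 and 258 CPM in double-knockout, 229 and 237 CPM in VHL-restored and 133 and 126 CPM in parental cells and rose in both lines, by 1.04 ± 0.06 and 0.85 ± 0.06. TOP2A, a mitotic topoisomerase, fell by 0.77 ± 0.06 (adjusted p = 4.1e-13) in double-knockout cells. MCM3, a subunit of the replicative helicase, rose by 1.18 ± 0.06 (adjusted p = 3.1e-17) in VHL-restored cells.

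Because GADD45A, SESN2, GDF15, BBC3 and TNFRSF10B can also be raised by ATF4 or CHOP, 21 genes of that stress response were read beside them, SESN2 included. In double-knockout cells 13 rose and 5 fell, in VHL-restored cells 9 rose and 9 fell, and between the lines 14 were higher and 4 lower. As shares these are 61.9% and 23.8%, 42.9% and 42.9%, and 66.7% and 19.0%, to be read against 35.7% and 34.4%, 34.6% and 35.7%, and 37.3% and 35.3% of the 12664 genes. ATF4 mRNA was at 357 and 339 CPM in double-knockout, 276 and 297 CPM in VHL-restored and 216 and 203 CPM in parental cells and rose by 0.73 ± 0.06 and 0.45 ± 0.06 in the engineered lines. DDIT3, the gene of CHOP, rose by 0.36 ± 0.08 and 0.30 ± 0.08. ATF3, a stress-induced factor, was at 38.2 and 40.4 CPM in double-knockout, a mean of 7.51 CPM in VHL-restored and 6.07 and 4.98 CPM in parental cells, and so was high in the double-knockout libraries. CHAC1, a glutathione-degrading enzyme, rose by 2.87 ± 0.25 in double-knockout cells, and the cystine transporter SLC7A11 was 14.1-fold higher there than in VHL-restored cells. Against these, the stress-induced chromatin protein NUPR1 fell by 8.12 ± 0.34 in double-knockout cells, and the mTORC1 inhibitor DDIT4, which is also a HIF target, fell by 2.85 ± 0.06. DDIT4 was lower in VHL-restored cells too, at 234 and 250 CPM against 945 and 961 CPM in parental cells. TRIB3, a pseudokinase, fell by 3.21 ± 0.06 in VHL-restored cells, where the secreted factor STC2 fell by 3.55 ± 0.06. TRIB3 was lower in double-knockout cells too, at 131 and 136 CPM against 589 and 598 CPM in parental cells. What part ATF4 or CHOP had in the values of the shared genes was not tested.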

How the data were processed

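The authors deposited whole-number counts per gene symbol for 6 libraries in one table whose name calls them normalized; since all values are whole and the totals differ, they were used as raw counts. The submitters' processing notes name HISAT2 2.2.1 (aligner) and featureCounts 2.0.8 (counter), beside FastQC 0.74, Trimmomatic 0.39 and limma 3.58.1, and both hg38 and hg19 as builds. Their order, settings, annotation and use of strand were not stated.

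The 18273 of 19009 genes that had a count in any library were tested by edgeR 4.0.16 (R 4.3.3) with TMM scaling (factors 0.977 to 1.02) and the quasi-likelihood test, in one model of 3 group means over all 6 libraries. p-values were adjusted over all genes tested (Benjamini-Hochberg, threshold 0.05). Levels are CPM on the TMM scale, and the SE is a Wald error from the same fit. The common dispersion corresponded to a coefficient of variation of 4.41%. Replicates differed by more than counting error in each group (chi-square per degree of freedom 4.86 in double-knockout, 6.89 in VHL-restored and 2.65 in parental cells), so none was counted as a duplicate. Alternatives, DESeq2 among them, are listed in the closing section. The code was tested on simulated data.

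Members and lists were chosen with earlier results of these data known. All members are given, in full for the 8 largest changes per comparison and the largest of each role, with MDM2, CDKN1A and members whose calls differ between lines. From each other list up to 4 genes per comparison, by size of change, could be named, plus MDM4, TP63 and TP73, and 1 further gene is not reported here. APAF1, BAK1, BID, ATF4, DDIT3 and LSM3, which overlaps XPC, were added after their values were seen. Floors cover counting error only.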

Additional observations from a re-analysis of the deposited data

Results flagged for a closer look

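Members that rose in one engineered line and fell in the other, each past an adjusted p of 0.05 against the shared parental libraries, were singled out. A gene chosen this way must differ between the lines in the same model, so the differences below restate the choice and are given as values with no test. Higher in double-knockout than in VHL-restored cells were GDF15 by 1.47 on the log2 scale, FAS by 1.28, SPATA18 by 1.00, PERP by 0.97, RRM2B by 0.80 and PHLDA3 by 0.75. Lower in double-knockout cells were XPC, with a log2 fold change of -1.65, PPM1D, with -1.18, and BTG2, with -1.02. The choice depends on single libraries for 5 of these genes. Without parental replicate 1, BTG2, FAS, SPATA18, PERP and RRM2B each lost one of the calls, which leaves 4 genes, GDF15, PHLDA3, XPC and PPM1D. FAS and RRM2B also lost a call without parental replicate 2, and PERP and RRM2B without double-knockout replicate 2. With 2 libraries in each group, no group was large enough to look for single outlying samples.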

How the results depend on the processing

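The 30 members were refitted under 12 alternatives: RLE size factors, median centring, filterByExpr, DESeq2 1.42.0, a fit of only the groups compared, the replicate block, and the omission of each of the 6 libraries. Of 360 member values per comparison, the direction and side of the threshold held for 348 in double-knockout against parental, 346 in VHL-restored against parental and 351 between the lines, and no called value changed direction. The counts of members higher and lower ran from 22 to 26 and stayed at 3 in double-knockout cells, from 17 to 21 and from 5 to 7 in VHL-restored cells, and from 15 to 17 and at 8 between the lines. Median centring moved all fold changes by at most 0.04 on the log2 scale and made the GADD45A value in VHL-restored cells, 0.18, pass (adjusted p = 0.0345).

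With the replicate number as a block the members called higher were 25, 20 and 17 in the 3 comparisons, and those called lower 3, 7 and 8. Same-numbered libraries did not deviate together in all groups (correlation of the replicate difference 0.03 for double-knockout with VHL-restored, 0.19 for double-knockout with parental and -0.01 for VHL-restored with parental), and the labels do not say that a number marks a shared culture or day. Allowing at most 2 mismatches left p53 consensus matches in 2 of 24 promoter windows (8.33%), beside 323 of 12471 windows of genes in the table (2.59%). With 2 libraries per group each estimate rests on few samples, and the members whose calls were lost are named in the report.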
